A study of Mus musculus with 12 samples.

Results

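The nuclear genes for the subunits of oxidative phosphorylation were followed through proliferation and the 2 induced quiescent states of adult mouse neural stem cells (NSCs). Members were the rows of the gene count table whose symbol begins with Nduf plus a subunit letter and a number, is Sdha, Sdhb, Sdhc, Sdhd or Cyc1, or begins with Uqcr, Cox4 to Cox8 or Atp5. This rule found 83 of the 17365 genes in the table, and 79 of the 83 had enough counts to be among the 13312 genes tested. Complex I held 37 members, complex II held 4, complex III held 9, complex IV held 16 with 12 of them tested, and complex V held 17. The 4 members that were not tested were Cox4i2, Cox6a2, Cox7a1 and Cox8b. The grouping follows the symbols, so that Ndufa4, a subunit now assigned to complex IV, and its relative Ndufa4l2 are counted with complex I, and Cox7a2l, which joins complexes III and IV into supercomplexes, with complex IV.

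Oxidative phosphorylation takes place in the inner mitochondrial membrane. Complexes I and II pass electrons from NADH and succinate to ubiquinone, complex III passes them on to cytochrome c and complex IV to oxygen, while complexes I, III and IV pump protons that drive ATP production by complex V. Complexes I, III, IV and V hold some proteins encoded in mitochondrial DNA, while their other subunits and all those of complex II come from nuclear genes. Neural stem cells and astrocytes are known for a high use of glycolysis, and neurons depend strongly on oxidative phosphorylation.

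The cultures came from the subventricular zone (SVZ) of mice 6 to 8 weeks old and grew on laminin in serum-free medium with N2 and B27. RNA was sequenced from 12 libraries, 4 per condition, with 2 from each of 2 lines, ANS4 of strain MF1 and BL6 of strain C57BL/6. In EGF/FGF the cells received EGF and FGF2 and proliferated, in BMP they received BMP-4 alone for 3 days, which the study calls dormant quiescent NSCs (d-qNSCs), and in BMP/FGF they received BMP-4 and FGF2 for 3 days, which it calls primed quiescent NSCs (p-qNSCs), every factor at 10 ng/ml. Each strain is represented by a single line and the labels call the libraries of a line replicas without tying them to separate animals, so that p-values measure the spread between these samples, which may be technical.

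Library totals lay between 18069052 and 19451818 counts, so that 3 counts, the level treated as a floor, equalled 0.154 to 0.166 CPM. Levels are CPM, that is counts set to a common library size, after scaling by the trimmed mean of M values (TMM). Fold changes are log2 values, and a gene was called where the Benjamini-Hochberg adjusted p of edgeR's quasi-likelihood test over all tested genes (edgeR FDR) was under 0.05. The summed level of 8 neural stem cell and astrocyte markers was at 7371 to 8040 CPM in EGF/FGF, 10910 to 12450 in BMP and at 14293 to 14780 in BMP/FGF. Single genes of these cell types did not all move with the sum. Nes was at 498 to 625 CPM in proliferating libraries. It was lower in quiescence, at 116 to 141 under BMP and 112 to 119 under BMP/FGF. In the same order, Gfap was higher, at 889 to 1108 and 1870 to 1980 CPM against 92.1 to 155. Sox2 was also higher, at 653 to 755 and 654 to 714 CPM against 456 to 499. Mki67, a proliferation marker, was at 533 to 804 CPM in EGF/FGF, at 54.6 to 130 in BMP and at 43.0 to 50.8 in BMP/FGF. The summed level of 6 neuronal markers was at 556 to 589 CPM in EGF/FGF, 1127 to 1745 in BMP and at 869 to 934 in BMP/FGF. Dcx, a marker of newborn neurons, was at 0.625 to 2.17 CPM in EGF/FGF, at 170 to 174 in the ANS4 and 379 to 396 in the BL6 libraries of BMP, and at 47.6 to 54.8 in BMP/FGF. Of 6 microglial markers in the table the summed level was 5.81 to 18.9 CPM over all 12 libraries, with Csf1r at 0 in every BMP library, and 4 endothelial and mural markers summed to 2.81 to 7.71 CPM. The summed level of 7 oligodendrocyte lineage markers was at 921 to 1021 CPM in EGF/FGF, 574 to 874 in BMP and at 649 to 721 in BMP/FGF. Within a bulk library, fewer cells of a type and less RNA per cell cannot be told apart, and the part of the neuronal and oligodendrocyte lineage RNA in the results was not tested.

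The summed level of the 83 members was highest in proliferating cells and lowest in BMP. The sum was 11514 ± 509 CPM in EGF/FGF (SD, n = 4), 7954 ± 708 in BMP and 8585 ± 191 in BMP/FGF, so that the mean fell by 30.9% in BMP and dropped by 25.4% in BMP/FGF. The 4 EGF/FGF libraries, at 11075 to 12230 CPM, did not overlap the 4 of either quiescent state, whose ranges of 7285 to 8686 and 8414 to 8813 CPM overlapped each other.

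Complex V made up the largest share of the sum and had the largest relative fall. Its summed level was 5023 and 5227 CPM in the ANS4 and 4932 and 4944 in the BL6 libraries of EGF/FGF, 3208, 3299, 2835 and 2866 CPM in the same order in BMP, and 3212, 3036, 3147 and 3209 in BMP/FGF. From EGF/FGF the mean fell by 39.3% in BMP and dropped by 37.4% in BMP/FGF, and the ranges of the 2 quiescent states overlapped. Complex I was at 2857 ± 162 CPM in EGF/FGF, 2181 ± 219 in BMP and 2451 ± 59.0 in BMP/FGF, complex III at 1170 ± 40.5, 794 ± 80.1 and 904 ± 16.0, and complex IV at 1733 ± 141, 1276 ± 125 and 1403 ± 63.8 (SD, n = 4 each). For these 3 complexes the mean changed by -23.6%, -32.1% and -26.4% in BMP, and every EGF/FGF library lay above every BMP library. In summed level, complex II moved least. It was at 723 ± 36.7 CPM in EGF/FGF and 651 ± 58.7 in BMP, with ranges of 694 to 776 and 593 to 711 that overlapped. Its sum held Sdha, at 304 to 326 CPM in EGF/FGF, which was called higher in BMP while the other 3 members were called lower. The second ANS4 library of EGF/FGF had the highest sum for each of the 5 complexes, and in BMP both BL6 libraries lay below both ANS4 libraries for each of them.

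**Figure D1:**
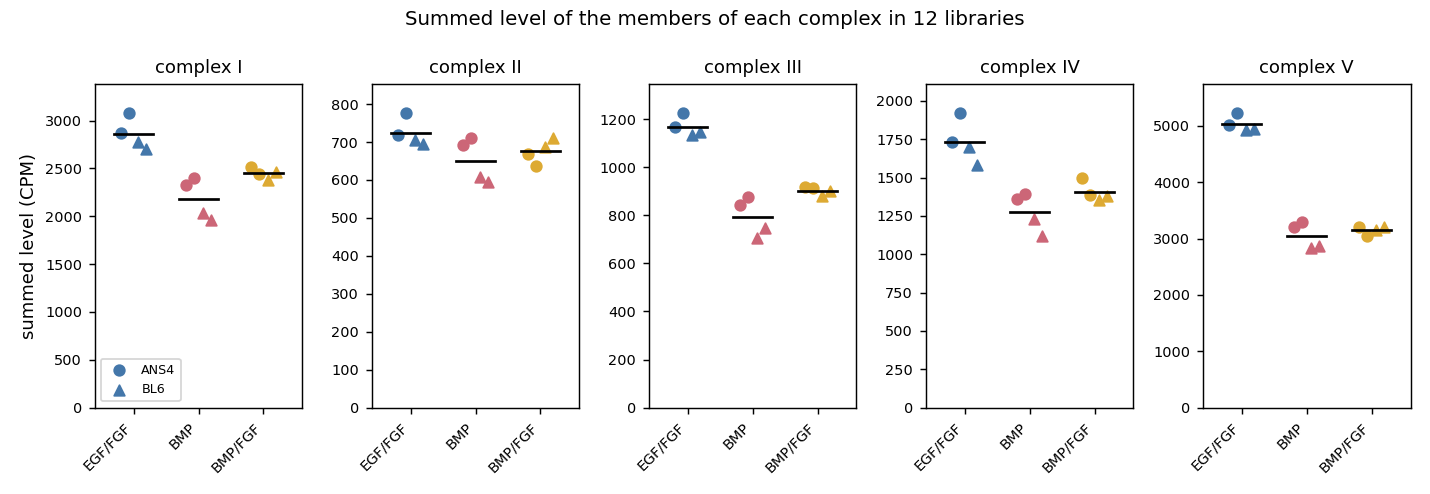
Summed CPM of the members of each complex in every library, by condition, with the mean of 4 libraries. Complex V falls from 5031 CPM in EGF/FGF to 3052 in BMP and 3151 in BMP/FGF, and the BL6 libraries of BMP lie below the ANS4 ones in all 5 complexes.

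Between BMP and EGF/FGF, 66 of the 79 tested members were lower, 3 were higher and 10 were not called, where 38.8% of all tested genes were lower and 40.8% higher. The median log2 fold change of the members was -0.47, beside 0.02 over all tested genes. The libraries did not overlap for 59 of the lower members and for 1 of the higher ones. The exact permutation test of 4 against 4 libraries gives such a member p = 0.0286, two-sided, the smallest value it can give. For all tested genes, libraries without overlap were not counted in any of the 3 comparisons, so these counts have no background share. The 3 higher members were Ndufa4l2, Ndufa3 and Sdha, and an unadjusted p under 0.05 added no other. All 3 were also called higher in ANS4 alone, but only Ndufa4l2 in BL6 alone.

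BMP/FGF was compared with the same EGF/FGF libraries. There 52 members were lower, 5 higher and 22 not called, where 38% of all tested genes were lower and 40.9% higher, and the members' median was -0.31 beside 0.02 over all tested genes. In 49 of the lower and 3 of the higher members the libraries did not overlap. The 5 higher members were Ndufa4l2, Ndufa3, Ndufa6, Ndufa7 and Sdha.

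The direct comparison of BMP/FGF with BMP asks how the 2 quiescent states differ. Of the 79 members, 27 were higher in BMP/FGF and 52 were not called, where 20.1% of all tested genes were higher and 21.3% lower. The median was 0.16, beside -0.00 over all tested genes, and the libraries did not overlap for 8 members. No member was lower by edgeR at this threshold, 1 was at an unadjusted p under 0.05 (Ndufa4l2), and the Wald test of DESeq2 called 1 (Atp5a1). With libraries scaled by their size alone, 17 members were higher and 2 lower (Atp5a1 and Ndufa4l2). In the separate lines there were 11 in ANS4 and 47 in BL6.

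By complex, the fall in BMP went through complexes III and V completely, with 9 of 9 and 17 of 17 members lower and medians of -0.61 and -0.74. In complex IV 11 of 12 tested members were lower with a median of -0.58, in complex II 3 of 4 with a median of -0.44, and in complex I 26 of 37 with a median of -0.35. In BMP/FGF against EGF/FGF the lower members were 16 of 17 in complex V, 7 of 9 in complex III, 8 of 12 in complex IV, 2 of 4 in complex II and 19 of 37 in complex I, with medians of -0.55, -0.40, -0.42, -0.30 and -0.19. Higher in BMP/FGF than in BMP were 13 members (35.1%) of complex I, 4 (44.4%) of complex III and 6 (35.3%) of complex V. In complex II it was 1 (25%) and in complex IV 3 (25%), shares near the 20.1% of all tested genes. The medians ran from 0.13 in complex III to 0.16 in complex I. The comparisons share libraries, so that their values for one member are not independent of each other.

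**Figure D2:**
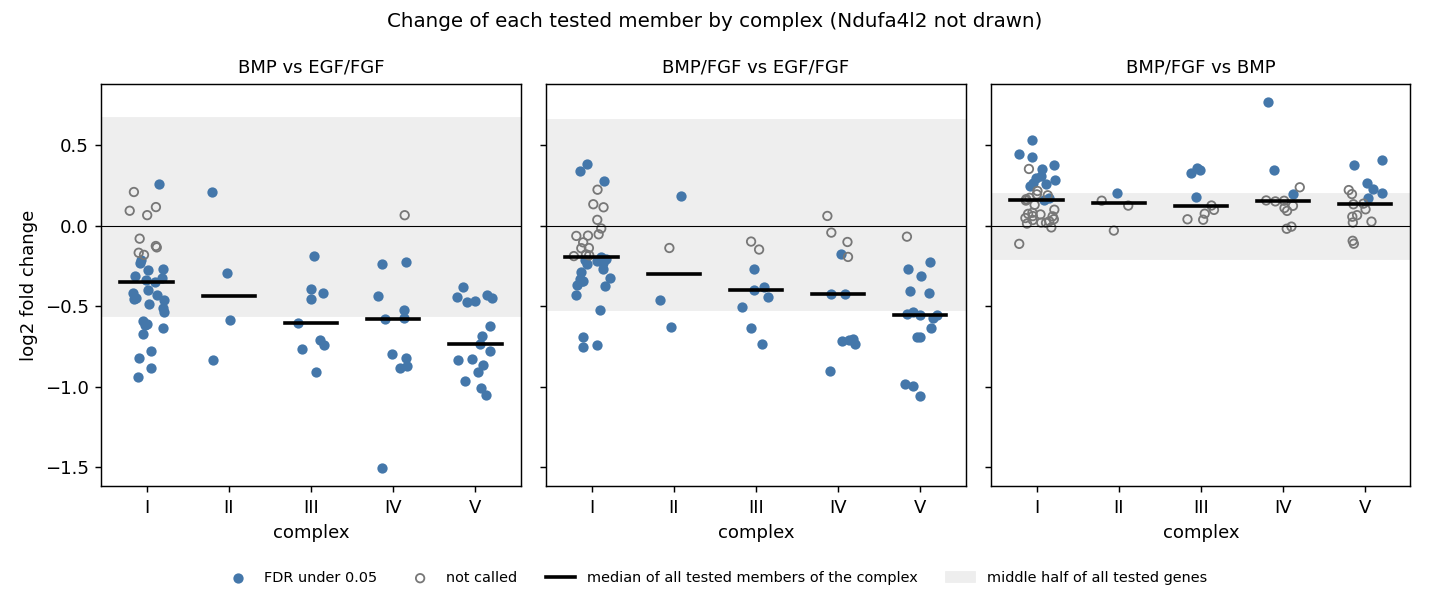
Log2 fold change of each tested member by complex for the 3 comparisons, as points, with the median of the complex and a line at 0 (Ndufa4l2 is not drawn). In BMP against EGF/FGF the medians run from -0.35 in complex I to -0.74 in complex V, and in BMP/FGF against BMP they lie between 0.13 and 0.16.

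Of all members, 23 are the conserved nuclear-encoded core of the 5 complexes or its central structural proteins. In BMP 19 of them were lower, 1 was higher and 3 were not called, with a median of -0.44, and in BMP/FGF against EGF/FGF 17 were lower and 1 higher with a median of -0.41. Against BMP, 4 of the 23 (17.4%) were higher in BMP/FGF, a share below the 20.1% of all tested genes.

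Complex I receives electrons from NADH through a peripheral arm whose nuclear core subunits include Ndufs1, Ndufs3, Ndufs7, Ndufs8, Ndufv1 and Ndufv2. Ndufv2, which carries an iron-sulfur cluster, was at 183 and 204 CPM in the ANS4 and 181 and 189.6 in the BL6 libraries of EGF/FGF, at 109.6, 118, 98.2 and 86.1 in BMP, and at 121, 112, 109.7 and 126 in BMP/FGF. All 8 libraries of the quiescent states lay below all 4 of EGF/FGF. The log2 fold change was -0.88 ± 0.08 (SE, edgeR FDR = 6.3e-09) in BMP and -0.69 ± 0.08 (1.7e-07) in BMP/FGF. Ndufs8, another iron-sulfur protein, was at 54.4 to 69.5 CPM in EGF/FGF, 29.98 to 41.9 in BMP and at 33.4 to 36.7 in BMP/FGF, again without overlap, with -0.78 ± 0.09 (edgeR FDR = 2.4e-07) and -0.75 ± 0.09 (4.2e-07). Ndufs1 and Ndufs7 were lower too, at -0.35 and -0.42 in BMP and at -0.22 and -0.34 in BMP/FGF. Ndufv1, which binds NADH, was at 92.3 to 113 CPM in EGF/FGF, 80.5 to 106 in BMP and at 88.4 to 101 in BMP/FGF, and was not called in either. Ndufs3 was likewise not called, with -0.17 ± 0.08 (edgeR FDR = 0.063) and -0.18 ± 0.08 (0.051), values close to the threshold.

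The 30 other members grouped with complex I are mainly accessory subunits around that core. Of these 21 were lower and 2 higher in BMP, with a median of -0.33. Ndufb6, of the membrane arm, was at 31.98 to 37.8 CPM in EGF/FGF, 16.0 to 21.3 in BMP and at 19.7 to 23.0 in BMP/FGF, with -0.94 ± 0.09 (edgeR FDR = 1.4e-08) and -0.74 ± 0.09 (3.2e-07). Ndufb8, of the same arm, was at 157 to 180.5 CPM in EGF/FGF, 87.1 to 108 in BMP and at 108 to 127 in BMP/FGF. Not every member of this arm was called lower in BMP, where Ndufb7 and Ndufb11 were at -0.12 ± 0.08 (edgeR FDR = 0.16) and -0.08 ± 0.07 (0.32). In BMP/FGF against EGF/FGF, Ndufb7 was called lower and Ndufb11 was not called.

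In contrast to the rest, 3 small accessory subunits of complex I were higher in a quiescent state than in EGF/FGF. Ndufa3 (chr7:3617373-3620327, GRCm38) was at 29.9 and 29.7 CPM in the ANS4 and 30.9 and 22.9 in the BL6 libraries of EGF/FGF, 37.5, 38.7, 31.2 and 28.8 in BMP, and 39.0, 35.3, 37.1 and 26.4 in BMP/FGF. The groups overlapped, since the second BL6 library of each quiescent state lay within the EGF/FGF range. The calls, at 0.26 ± 0.10 (edgeR FDR = 0.029) and 0.28 ± 0.10 (0.02), were lost in 8 and 6 of 21 alternatives. Ndufa7 (chr17:33824572-33838317) was at 50.6, 60.1, 48.2 and 46.4 CPM in EGF/FGF, 53.4, 63.8, 49.0 and 56.2 in BMP, and 70.1, 64.6, 70.6 and 61.6 in BMP/FGF. Every BMP/FGF library lay above every EGF/FGF library, while BMP overlapped both. Its log2 fold change in BMP/FGF was 0.38 ± 0.08 (edgeR FDR = 3.1e-04) against EGF/FGF and 0.27 ± 0.08 (0.014) against BMP. Ndufa6 was at 41.9 to 59.2 CPM in EGF/FGF, 46.9 to 63.5 in BMP and at 61.1 to 68.9 in BMP/FGF, which did not overlap EGF/FGF, with 0.34 ± 0.10 (edgeR FDR = 0.0037). The 100 bases before the RefSeq start of Ndufa3 (chr7:3617273-3617372, plus strand, GRCm38.p6) and Ndufa7 (chr17:33824472-33824571, plus strand, the first of 2 windows) are shown because these 2 members went against the rest. Neither stretch holds any of the 4 motifs searched for, which are spelled out beside the promoters of complexes IV and V. The promoter of Ndufa6, which also went against the rest, is not shown. In the longer windows used for the motif counts, Ndufa6 held the NRF1 core, while Ndufa3 and Ndufa7 held none of the 4 motifs.

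Ndufa3: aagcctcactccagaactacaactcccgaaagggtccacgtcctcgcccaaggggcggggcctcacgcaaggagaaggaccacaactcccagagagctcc
Ndufa7: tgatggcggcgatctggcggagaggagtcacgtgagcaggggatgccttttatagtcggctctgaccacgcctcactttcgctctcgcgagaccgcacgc

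The largest rises of complex I members between BMP and BMP/FGF were those of Ndufb4, Ndufs4 and Ndufb2. Ndufb4, of the membrane arm, was at 44.98, 48.5, 47.8 and 47.5 CPM in EGF/FGF, 31.9, 33.7, 25.8 and 27.5 in BMP, and 39.8, 47.1, 42.2 and 42.6 in BMP/FGF. BMP/FGF lay above BMP in every library and overlapped EGF/FGF. The change was 0.54 ± 0.08 (edgeR FDR = 4.1e-05) against BMP and -0.14 ± 0.08 (0.11) against EGF/FGF. Ndufs4, an accessory subunit of the peripheral arm, was at 62.9 to 76.1 CPM in EGF/FGF, 44.9 to 67.9 in BMP and at 70.6 to 85.1 in BMP/FGF, without overlap between the quiescent states and with 0.44 ± 0.09 (edgeR FDR = 0.0011). Ndufb2, at 7.61 to 14.7 CPM over all libraries, changed by 0.43 ± 0.12 (edgeR FDR = 0.01) and its groups overlapped. Of the 7 core subunits of complex I none was called between BMP/FGF and BMP, with a median of 0.07, and 13 of the 30 other members were higher with a median of 0.17. The difference between these 2 groups of members was not tested.

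Ndufa4l2 (chr10:127514967-127517154), the relative of Ndufa4 that is induced by hypoxia signalling in many cells, was near the floor in proliferating cells. Its counts were 0, 2, 1 and 2 in the EGF/FGF libraries, 5 in all, against 128 in the 4 BMP and 84 in the 4 BMP/FGF libraries. In BMP it was at 1.88 and 1.99 CPM in ANS4 and at 1.56 and 1.46 in BL6, and in BMP/FGF at 1.51, 1.13, 0.726 and 1.23. All 8 lay above all 4 EGF/FGF libraries. The ratio of pooled counts per total was 26.8 in BMP (95% interval 11.2 to 84.0) and 17.5 in BMP/FGF (7.20 to 55.2), intervals that cover counting error only. Between the quiescent states the ratio of BMP/FGF to BMP was 0.652 (0.489 to 0.865), and edgeR did not call it across replicates (-0.58 ± 0.24, FDR = 0.06). Ndufa4 (chr6:11900292-11907497) moved the other way, with 118 to 133 CPM in EGF/FGF, 74.4 to 93.3 in BMP and at 88.9 to 98.0 in BMP/FGF and a log2 fold change in BMP of -0.59 ± 0.06 (edgeR FDR = 8.9e-08). 

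Complex II, succinate dehydrogenase, also works in the tricarboxylic acid cycle. Sdha, its flavoprotein, was at 314, 326, 304 and 308 CPM in EGF/FGF, 397, 396, 345 and 316 in BMP, and 343, 326, 371 and 381 in BMP/FGF. Both ANS4 libraries of BMP stood above the others and the groups overlapped. The changes were 0.21 ± 0.07 (edgeR FDR = 0.014) and 0.18 ± 0.07 (0.032). The call in BMP was lost in 3 of 21 alternatives, without either ANS4 library of BMP and in BL6 alone. That in BMP/FGF was lost in 8 of 21. The iron-sulfur subunit Sdhb and the membrane anchors Sdhc and Sdhd were lower in BMP. Sdhd was at 107 to 125 CPM in EGF/FGF, 56.1 to 72.5 in BMP and at 70.02 to 76.5 in BMP/FGF, so that both quiescent states lay apart from EGF/FGF, with -0.84 ± 0.07 (edgeR FDR = 6.6e-09) and -0.63 ± 0.07 (2.9e-07). Sdhb changed by -0.58 ± 0.07 (edgeR FDR = 5.8e-07) and -0.46 ± 0.07 (1.2e-05).

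Complex III, the cytochrome bc1 complex, was lower in all 9 members in BMP. Cyc1, the nuclear-encoded cytochrome c1 that hands electrons to cytochrome c, was at 162, 175, 163 and 156 CPM in EGF/FGF, 88.2, 96.3, 76.6 and 88.1 in BMP, and 97.8, 103, 91.6 and 101 in BMP/FGF. No library of a quiescent state reached the lowest of EGF/FGF. Its log2 fold change was -0.91 ± 0.06 (edgeR FDR = 3.2e-10) in BMP and -0.73 ± 0.06 (6.5e-09) in BMP/FGF. The core protein Uqcrc2 was at 229.6 to 259.9 CPM in EGF/FGF, 169 to 196 in BMP and at 227 to 235 in BMP/FGF. It was lower in BMP (-0.45 ± 0.06, edgeR FDR = 1.9e-06), was not called in BMP/FGF against EGF/FGF (-0.10 ± 0.06, FDR = 0.15), and rose between BMP and BMP/FGF by 0.36 ± 0.06 (1.6e-04) without overlap. Its partner Uqcrc1 was lower in both quiescent states, with -0.42 ± 0.07 and -0.38 ± 0.07, and not called between them (0.04 ± 0.07). Uqcrfs1, the Rieske iron-sulfur protein, was lower as well, at -0.39 ± 0.07 in BMP and -0.27 ± 0.07 in BMP/FGF. The smallest change of the complex was that of Uqcr11, at -0.19 ± 0.07 (edgeR FDR = 0.028) in BMP with overlapping groups.

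Complex IV, cytochrome c oxidase, has subunits with tissue-specific isoforms. Cox4i1, the ubiquitous form of the largest nuclear subunit, was at 257, 328, 236 and 221 CPM in EGF/FGF, 288, 323, 278 and 202 in BMP, and 283, 264, 263 and 268 in BMP/FGF. The 3 groups overlapped and Cox4i1 was the only tested member of complex IV not called in BMP, at 0.07 ± 0.10 (edgeR FDR = 0.55). Cox5a and Cox5b, its neighbours in the enzyme, were lower in both quiescent states. Cox5a was at 89.8, 131, 102 and 94.8 CPM in EGF/FGF, 62.6, 63.3, 58.3 and 43.0 in BMP, and 57.1, 51.3, 54.8 and 60.0 in BMP/FGF, apart from EGF/FGF in every library. It changed by -0.88 ± 0.11 (edgeR FDR = 1.1e-06) in BMP and by -0.90 ± 0.11 (9.4e-07) in BMP/FGF. Among the small subunits, Cox7a2, Cox7b and Cox7c changed by -0.82, -0.87 and -0.80 in BMP and by -0.71, -0.72 and -0.71 in BMP/FGF.

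The isoforms of subunit 6b differed in size of change. Cox6b2 (chr7:4751792-4753094), described mainly from testis, was at 15.3 and 13.1 CPM in the ANS4 and 11.2 and 10.6 in the BL6 libraries of EGF/FGF, at 5.02, 4.98, 3.78 and 3.91 in BMP, and at 7.76, 7.76, 7.88 and 6.65 in BMP/FGF. The 3 conditions did not overlap, with BMP/FGF between the others. It had the largest fall of any member in BMP, -1.50 ± 0.11 (edgeR FDR = 5.6e-10), and the largest rise from BMP to BMP/FGF, 0.77 ± 0.11 (4.6e-05), and it changed by -0.73 ± 0.10 (3.7e-06) in BMP/FGF against EGF/FGF. The ubiquitous form Cox6b1 (chr7:30616861-30626151) was at 225, 216, 232 and 198 CPM, 186, 142, 138 and 142 CPM, and 205, 195, 180.0 and 192 CPM in the same order of conditions. BMP lay below EGF/FGF in every library and BMP/FGF overlapped both. Its changes were -0.52 ± 0.08 (edgeR FDR = 7.8e-06), -0.17 ± 0.08 (0.049, a call lost in 9 of 21 alternatives) and 0.35 ± 0.08 (0.0019). Divided by transcript length and rescaled to the same total as CPM, the level of Cox6b1 averaged 897 and that of Cox6b2 41.0 over all libraries.

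The 100 bases before the RefSeq start of both isoforms are shown for comparison, Cox6b2 at chr7:4753095-4753194 and Cox6b1 at chr7:30626115-30626214, both on the minus strand of GRCm38.p6. Capitals in Cox6b1 mark a match to the ETS core, read on the opposite strand and beginning 28 bases before the start. The GENCODE gene of Cox6b1 reaches into this stretch.

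Cox6b2: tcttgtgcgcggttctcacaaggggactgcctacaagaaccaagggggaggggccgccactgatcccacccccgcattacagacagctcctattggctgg
Cox6b1: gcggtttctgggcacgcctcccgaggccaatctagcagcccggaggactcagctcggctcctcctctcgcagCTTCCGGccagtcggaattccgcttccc

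The 4 tissue-restricted forms of complex IV subunits were at or near the floor, Cox4i2, known from lung and from hypoxia, and the heart and muscle forms Cox6a2, Cox7a1 and Cox8b. Pooled over the 4 libraries of EGF/FGF, BMP and BMP/FGF, Cox4i2 had 6, 3 and 2 counts, Cox6a2 had 5, 4 and 9, Cox7a1 had 1, 15 and 8, and Cox8b had 6, 23 and 25. The ratio of BMP to EGF/FGF was 4.02 (95% counting interval 1.59 to 12.1) for Cox8b and 15.7 (2.42 to 662) for Cox7a1, and that of BMP/FGF to EGF/FGF 4.34 (1.74 to 12.9) and 8.33 (1.12 to 369). No library of any of these 4 genes was above 0.469 CPM. Their ubiquitous counterparts Cox6a1, Cox7a2 and Cox8a were at 156 to 212, 48.9 to 114 and 123 to 232 CPM over all libraries.

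**Figure D3:**
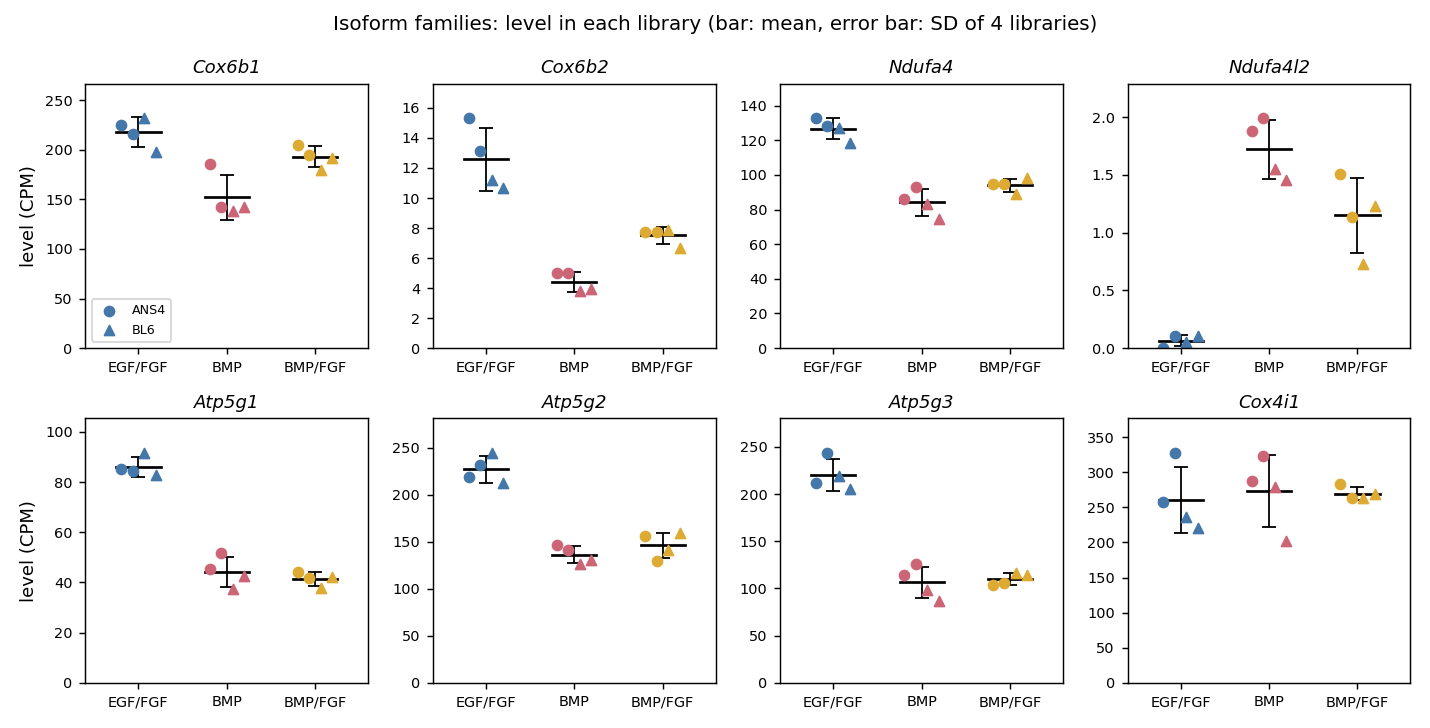
Level in CPM, on axes that start at 0, of 8 members in every library, by condition, with the mean and SD of 4. Cox6b2 has 3 separate ranges, of 10.6 to 15.3, 3.78 to 5.02 and 6.65 to 7.88 CPM, and Ndufa4l2 rises from at most 0.103 CPM while Ndufa4 is lower in both quiescent states.

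Complex V, ATP synthase, couples proton flow through a membrane ring to ATP production in a catalytic head. Atp5b (chr10:128083273-128090391), the catalytic beta subunit, was the member with the highest level per transcript length, an average of 1669 over all libraries on the scale defined for Cox6b1. It was at 1628, 1666, 1574 and 1627 CPM in EGF/FGF, 816, 878, 760.0 and 777 in BMP, and 866, 786, 823 and 814 in BMP/FGF. The spread within a condition was small beside the gap to EGF/FGF, and the quiescent states overlapped. Its level was 0.497 of that in EGF/FGF in BMP and 0.506 in BMP/FGF, on the log2 scale -1.01 ± 0.06 (edgeR FDR = 3.1e-11) and -0.98 ± 0.06 (4.9e-11), with 0.03 ± 0.06 (0.75) between the quiescent states. The alpha subunit Atp5a1 (chr18:77773729-77782869), with which it alternates in the head, fell less. It was at 1117 to 1200 CPM in EGF/FGF, 809 to 903 in BMP and at 759 to 816 in BMP/FGF, with -0.44 ± 0.06 (edgeR FDR = 1.9e-06) and -0.55 ± 0.06 (1.2e-07). The difference between the 2 subunits was not tested. The shaft subunits Atp5c1 and Atp5d changed by -0.87 ± 0.06 and -0.43 ± 0.08 in BMP, and Atp5o, which holds the head in place, by -0.68 ± 0.07.

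The 3 Atp5g genes encode the same mature ring protein, subunit c, behind different import sequences. Atp5g1 (chr11:96068852-96075670) was at 85.3, 84.3, 91.6 and 82.7 CPM in EGF/FGF, 45.2, 51.8, 37.5 and 42.8 in BMP, and 44.2, 41.8, 37.7 and 42.1 in BMP/FGF. Atp5g2 (chr15:102662864-102672352) was at 213 to 245 CPM, 127 to 147 and 130.2 to 159, and Atp5g3 (chr2:73908447-73911326) at 205 to 244, 87.2 to 125 and 104 to 116. For each of the 3 genes EGF/FGF lay above both quiescent states, which overlapped. The changes in BMP were -0.96 ± 0.08, -0.74 ± 0.07 and -1.05 ± 0.09, and those in BMP/FGF -1.05 ± 0.08 for Atp5g1 and -0.63 ± 0.07 for Atp5g2, while Atp5g3 was at 0.501 of its EGF/FGF level, all called by edgeR with FDR from 6.9e-10 for Atp5g1 to 3.5e-07 for Atp5g2, both in BMP/FGF. None was called between the quiescent states, at -0.09 ± 0.08, 0.10 ± 0.07 and 0.06 ± 0.09.

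The promoters of these 3 genes are shown because genes for 1 mature protein can be set side by side. The stretches of 100 bases end at the RefSeq starts and lie on the minus strand of GRCm38.p6 at chr11:96075632-96075731 for Atp5g1, chr15:102671048-102671147 for Atp5g2 and chr2:73911327-73911426 for Atp5g3. Capitals mark overlapping matches to the NRF1 core on both strands in Atp5g2, from 42 bases before the start, and a match to the ERR motif on the opposite strand in Atp5g3, from 52 bases before it. In GENCODE the genes Atp5g1 and Atp5g2 reach into or past these stretches.

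Atp5g1: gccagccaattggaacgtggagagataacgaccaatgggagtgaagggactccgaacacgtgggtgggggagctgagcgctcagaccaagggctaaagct
Atp5g2: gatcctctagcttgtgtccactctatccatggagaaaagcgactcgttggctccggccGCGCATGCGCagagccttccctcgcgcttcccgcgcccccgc
Atp5g3: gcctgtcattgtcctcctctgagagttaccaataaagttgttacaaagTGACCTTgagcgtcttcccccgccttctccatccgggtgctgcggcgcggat

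Motifs of 4 factors described at respiratory chain promoters were counted in the RefSeq windows from 250 bases before to 50 after each start, on both strands. These were GCGCATGC for NRF1, CCGGAAG for ETS factors, AAGATGGCG for YY1 and AAGGTCA for ERR receptors. A window was found for 67 members, 65 of them tested. The NRF1 core was in at least 1 window of 14.9% of these members, beside 5.92% of the 10652 tested genes with a window, counted the same way. Of all 32851 windows, counted singly and so in another unit, 2.71% held it. For the ETS core the shares were 25.4%, 19.5% and 8.86%, for the YY1 core 10.4%, 3.41% and 1.4%, and for the ERR motif 11.9%, 3.72% and 4.72%. Of the tested members, 32 held at least 1 of the 4 and 33 held none, with median log2 fold changes in BMP of -0.50 and -0.51. By motif, the median in BMP was -0.35 for the 10 with the NRF1 core, -0.58 for the 17 with the ETS core, -0.42 for the 7 with the YY1 core and -0.73 for the 8 with the ERR motif. A match describes the letters only.

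**Figure D4:**
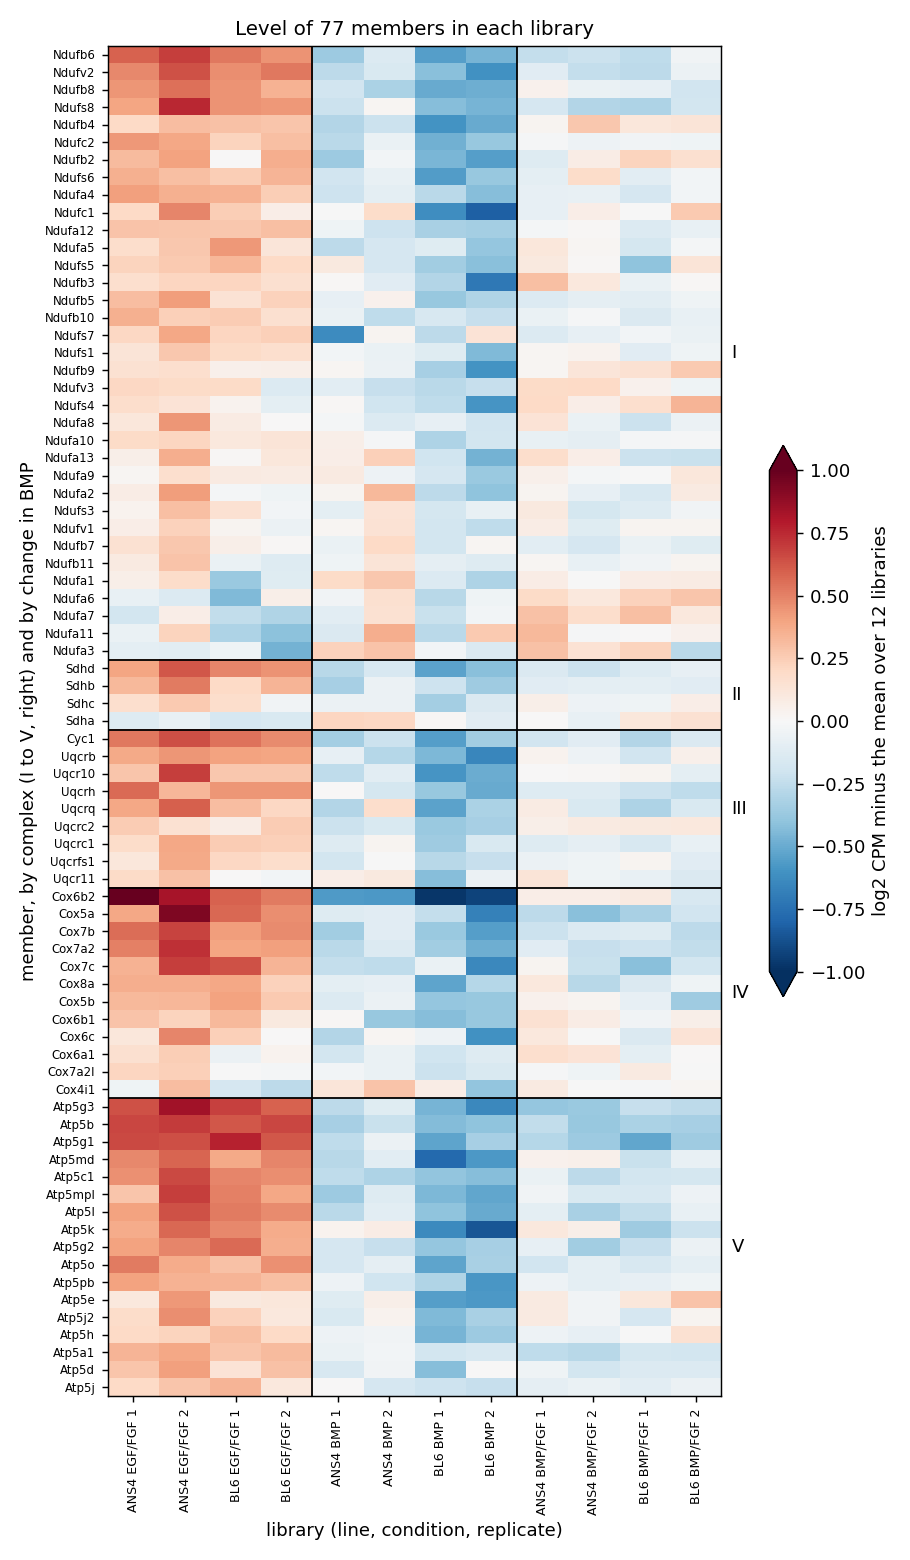
Level of 77 tested members in each of the 12 libraries, as log2 CPM minus the member's mean over all libraries, grouped by complex (Ndufa4l2 is among those not drawn). The 4 EGF/FGF columns are above the mean for most members of complexes III and V, and below it for Sdha in complex II.

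Across the 79 tested members, the size of change bore little relation to the level. Spearman's rho between mean log2 CPM and log2 fold change was -0.05 in BMP against EGF/FGF, -0.13 in BMP/FGF against EGF/FGF and -0.12 between the quiescent states, over members that share the same libraries and depth.

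The lines were then compared, since each condition holds 2 libraries of ANS4 and 2 of BL6. With the lines fitted apart, the fall in BMP was seen in both, with 64 members lower and a median of -0.42 in ANS4 and 65 lower and a median of -0.63 in BL6. Over all genes tested in the line, 37.9% were lower in ANS4 and 37.3% in BL6. The BL6 value was below the ANS4 value for 67 of the 79 members. A difference between the lines in BMP against EGF/FGF was called for 3 members, where 9.02% of all tested genes had one. These were Atp5k, Ndufc1 and Atp5h, all lower in BL6. The call of Ndufc1 was lost in 11 of 18 alternatives and that of Atp5h in 2. Atp5k, of the membrane part of complex V, was at 29.3 to 33.7 CPM in EGF/FGF in both lines, and in BMP at 23.2 and 23.9 in ANS4 and 14.6 and 12.5 in BL6. Its difference of BL6 from ANS4 was -0.75 (edgeR FDR = 0.0037). In BMP/FGF against EGF/FGF the medians were -0.34 in ANS4 and -0.32 in BL6, with 58 and 48 members lower. Over all genes tested in the line, 37.0% and 36.6% were lower. The lines differed for 1 member, Cox7a2l, where 4.98% of all genes did. That call was lost in 13 of 18 alternatives.

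Between BMP/FGF and BMP the median change of the members was larger in BL6 than in ANS4. The median of the members was 0.04 in ANS4 and 0.25 in BL6, with 11 members higher and 2 lower (Atp5a1 and Sdha) in ANS4 and 47 higher and none lower in BL6. Over all genes tested in the line, 17.3% were higher and 18.5% lower in ANS4, and 19.5% and 21.0% in BL6. The BL6 value was above the ANS4 value for 70 of 79 members and the 2 values had opposite signs for 26. The TMM scaling factor was 1.031 in both BL6 libraries of BMP and 0.972 and 0.977 in those of BMP/FGF. In ANS4 it was 0.994 to 1 in these conditions. The SD of the members' median log2 CPM between replicates of a line and condition was 0.082. The part of scaling in the gap between the lines was not tested. The difference between the lines itself was called for 12 members (15.2%), all higher in BL6. This share was close to the 13.5% of all tested genes with a difference in either direction. Of the 12 members, 8 were in complex I, 1 in complex II and 3 in complex V. No difference in the other direction was called by edgeR, none had an unadjusted p under 0.05, and none was called by DESeq2, whose total was 13.

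Ndufc1, a small membrane subunit of complex I, had the largest such difference. In the ANS4 libraries it was at 17.3 and 19.6 CPM in BMP and at 16.3 and 18.1 in BMP/FGF, and in BL6 at 11.2 and 9.80 in BMP and 17.3 and 20.8 in BMP/FGF. The BL6 libraries of BMP were the 2 lowest of all 12, and in BMP/FGF the lines overlapped. The difference was 0.95 (edgeR FDR = 0.0028). Atp5e, the epsilon subunit of the ATP synthase head, was at 33.8 and 38.4 CPM in ANS4 and 25.1 and 24.7 in BL6 in BMP, and at 39.2, 35.9, 39.8 and 45.02 in BMP/FGF, with a difference of 0.71 (edgeR FDR = 0.0048). Ndufb9 was at 69.1 and 65.4 CPM against 54.2 and 44.996 in BMP, and at 69.1, 74.4, 75.8 and 81.8 in BMP/FGF, with 0.57 (edgeR FDR = 0.0036). For these 3 genes the lines lay apart in BMP and both BL6 libraries of BMP/FGF were above both of BMP. The BL6 libraries of BMP, which all line differences involving BMP rest on, differed more from each other than any other pair, with a chi-square per degree of freedom over genes of 12.2 against 2.12 to 4.68 in the other 5 pairs. Others called included Atp5h, Atp5g3, Ndufa1, Ndufs4, Sdha, Ndufb5, Ndufv1 and Ndufa10, at 0.33 to 0.51. The calls of Ndufs4 and Ndufv1 were lost in 13 and 11 of 18 alternatives, library size only and the removal of either BL6 library of BMP/FGF among them. The neuronal marker sum in BMP was 1127 to 1212 CPM in ANS4 and 1573 to 1745 in BL6, the oligodendrocyte lineage sum 574 to 612 and 771 to 874, and Mki67 54.6 to 63.2 and 118 to 130. Their part in the difference between the lines was not tested. The count of 12 ran from 6 to 22 when single libraries were left out and was 22 without the first BL6 library of BMP.

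**Figure D5:**
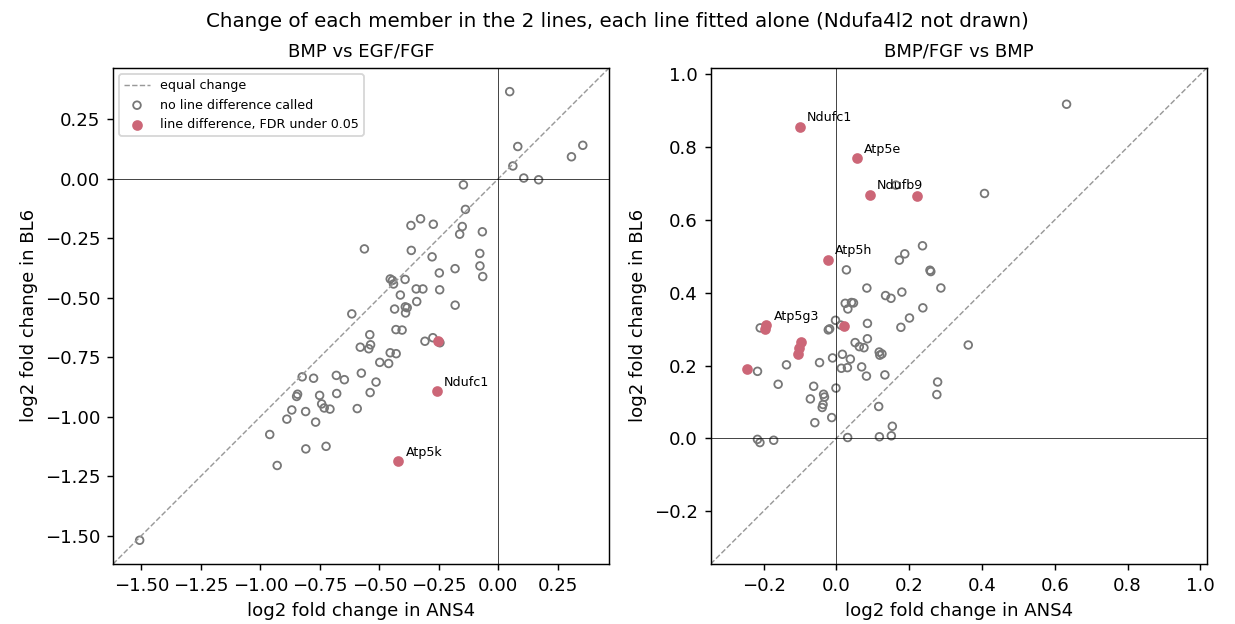
Log2 fold change of each tested member in ANS4 alone against BL6 alone, for BMP against EGF/FGF and for BMP/FGF against BMP, with the line of equal values (Ndufa4l2 is not drawn). In the first comparison most members lie below the line of equal values and under 0 in both lines, and in the second 70 of 79 members have the larger value in BL6.

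Other genes of mitochondrial energy metabolism were described from 6 lists. Over all tested genes, 38.8% were lower and 40.8% higher in BMP, 38% and 40.9% in BMP/FGF against EGF/FGF, and 21.3% and 20.1% in BMP/FGF against BMP, with medians of 0.02, 0.02 and -0.00. The 13 subunits encoded in mitochondrial DNA were not analysed here. Of 8 tested carriers, 6 were lower and 2 higher in BMP with a median of -0.23, and in BMP/FGF against EGF/FGF 3 were lower and 3 higher. Cycs, the cytochrome c that links complexes III and IV, had the largest fall. It was at 336 to 421 CPM in EGF/FGF, 89.6 to 119 in BMP and at 118 to 136 in BMP/FGF, without overlap of the quiescent states with EGF/FGF. Its changes were -1.97 in BMP (edgeR FDR = 1.3e-12), -1.63 in BMP/FGF (1.5e-11) and 0.34 between them (0.0062). The ATP and ADP exchanger Slc25a5 changed by -1.03 and -0.90 and its relative Slc25a4 by -0.28 and -0.04, the second not called, and the phosphate carrier Slc25a3 by -0.50 and -0.62. Etfa and Etfdh, which bring electrons from fatty acid oxidation to ubiquinone, were higher in both quiescent states, by 0.26 and 0.47 and by 0.27 and 0.37, while Etfb changed by -0.18 in BMP and was not called in BMP/FGF (0.04). Ucp2, a carrier of the inner membrane, changed by -0.19 in BMP and by 0.29 in BMP/FGF. Slc25a31, Ucp1 and Ucp3 had too few counts to be tested, and Cyct is not analysed here.

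Of 45 tested assembly factors, 24 (53.3%, beside 38.8% of all tested genes) were lower and 5 higher in BMP (median -0.32). In BMP/FGF 21 (46.7%, beside 38%) were lower and 6 higher (median -0.06), and against BMP 13 (28.9%, beside 20.1%) were higher and 1, Cox10, lower (median 0.16). Ndufaf4, a complex I assembly factor, changed by -1.67 in BMP and -1.43 in BMP/FGF, and Surf1, of complex IV assembly, by 0.66 and 0.92, both with FDR under 0.05 by edgeR. Pet100 rose by 0.56 and Cox10, of heme A synthesis, changed by -0.61 from BMP to BMP/FGF. Among 18 regulators of mitochondrial biogenesis, 11 (61.1%) were lower and 3 higher in BMP and 12 (66.7%) lower and 4 higher in BMP/FGF, and against BMP 8 were lower and 1 higher. Ppargc1a, the coactivator PGC-1 alpha, was at 26.8 to 29.9 CPM in EGF/FGF, 60.5 to 69.3 in BMP and at 49.7 to 53.8 in BMP/FGF, with 3 separate ranges, and changed by 1.20 (edgeR FDR = 1.0e-11) and 0.89 (7.4e-10). Its relative Ppargc1b went the other way, at 6.78 to 9.35 CPM in EGF/FGF, 1.24 to 1.77 in BMP and at 0.485 to 1.57 in BMP/FGF. In the biogenesis list Esrrg changed by 0.90 in BMP/FGF against EGF/FGF. Polg2 and Hcfc1 had the largest rise and fall from BMP to BMP/FGF, 0.63 and -0.58.

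The tricarboxylic acid cycle list had 14 of 18 genes (77.8%) lower and 2 higher in BMP (median -0.44), and 9 (50%) lower and 1 higher in BMP/FGF (median -0.24). Fh1, fumarate hydratase, changed by -1.16 and -0.93. Idh2, which makes NADPH in mitochondria, was higher by 0.53 in BMP. Between the quiescent states 7 genes (38.9%) were higher in BMP/FGF, with Dld at 0.32, and 1 was lower, Idh2 at -0.42. Of 30 genes for membrane organisation and protein import, 28 (93.3%) were lower and 1, the fusion protein Mfn2 at 0.57, was higher in BMP (median -0.79), and 25 (83.3%) were lower and 2 higher in BMP/FGF (median -0.64), with Chchd6 at 0.44. The matrix chaperonins Hspe1 and Hspd1 had the largest falls, -1.83 for Hspe1 in BMP and -1.48 for Hspd1 in BMP/FGF. From BMP to BMP/FGF 12 genes (40%) of this list were higher, with Hspe1 at 0.43, and 1 was lower, Mfn2 at -0.25. No difference between a list and other genes was tested.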

How the data were processed

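RNA was measured in 12 bulk libraries of mouse NSC cultures, 4 for each of EGF/FGF, BMP and BMP/FGF, from a low-input BGISEQ-500RS library kit. Reads were trimmed with Trim Galore 0.5.0 and quantified with kallisto 0.44.0 against mm10 transcripts according to the submitters' processing notes, and summed per gene with Tximport according to the study's methods. The authors deposited the resulting estimated counts per gene as whole numbers. A second deposited table of log2 values, made with DESeq2 1.27.32 and its regularized logarithm, is not used here. Kallisto divides reads shared by near-identical copies, so that members with pseudogenes are less certain. Genes of mitochondrial DNA are not analysed here, and single values of some genes are not reported here.

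Groups came from the sample titles. Genes were kept with filterByExpr by condition (13312 kept, 4053 not), scaled by TMM and fitted by glmQLFit on all 12 libraries with condition and line as terms. The difference between lines was tested as an interaction, and p-values were two-sided and adjusted over all tested genes. Totals of 18069052 to 19451818 counts set the precision, and intervals of pooled counts are exact 95% binomial intervals. Levels per transcript length divide counts by the longest GENCODE vM21 transcript. Promoters came from RefSeq on GRCm38.p6, and gene positions are those of GENCODE vM21 on GRCm38. The fits were also run on simulated data, and the outcome is not reported here.

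The members and lists were chosen with earlier results of these data known. Named members were the core subunits, the isoform families, the 4 largest called rises and falls of each comparison with a mean of at least 1 CPM and the same direction in both lines, the 3 largest called line differences in each direction, and members not tested. Of the other lists, the largest called rise and fall per comparison and every gene of lists of 13 or fewer were named. Further members were named after their values were seen, where a count of few members or a contrast within a complex needed them. Alternatives were other scalings, DESeq2, no count filter, other covariates, a replicate block, fewer samples, each line alone, each library left out and strict subunits only. Software was R 4.3.3 with edgeR 4.0.16, limma 3.58.1 and DESeq2 1.42.0, and Python 3.11.15 with pandas 2.3.3, numpy 2.4.6, scipy 1.17.1 and matplotlib 3.10.9.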

Additional observations from a re-analysis of the deposited data

Results flagged for a closer look

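In groups of 4 libraries, 7 of 153 groups of a named member held a library far from the other 3, and chance flags about 1 in 20 groups. The second ANS4 library of EGF/FGF was above the other 3 for Atp5c1 (407 CPM, others 355 to 362), Atp5e (49.7, others 39.3 to 39.8), Ndufs7 (37.7, others 33.2 to 33.9) and Ndufs8 (69.5, others 54.4 to 56.5). Cox6b1 was at 186 CPM in the first ANS4 library of BMP, where the others were at 138 to 142. Cox6b2 was at 6.65 CPM in the second BL6 library of BMP/FGF, with the others at 7.76 to 7.88, and Ndufa3 at 22.9 CPM in the second BL6 library of EGF/FGF, with the others at 29.7 to 30.9.

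Named members whose response differed between the lines by the interaction test, at an edgeR FDR under 0.05, are given as the log2 difference of BL6 from ANS4 with the values of each line alone. In BMP against EGF/FGF these were Atp5k at -0.75 (ANS4 -0.42, BL6 -1.19), Ndufc1 at -0.62 (-0.26 and -0.89, a call lost in 11 of 18 alternatives) and Atp5h at -0.41 (-0.25 and -0.68). In BMP/FGF against EGF/FGF Cox7a2l was at 0.31 (-0.26 and 0.04, a call lost in 13 of 18 alternatives). Between BMP/FGF and BMP, Ndufc1 was at 0.95 (-0.10 and 0.86), Atp5e at 0.71 (0.06 and 0.77), Ndufb9 at 0.57 (0.09 and 0.67), Atp5h at 0.51 (-0.02 and 0.49), Atp5g3 at 0.50 (-0.19 and 0.31) and Ndufs4 at 0.44 (0.22 and 0.67, a call lost in 13 of 18 alternatives). In the same comparison Sdha was at 0.43 (-0.25 and 0.19) and Ndufv1 at 0.35 (-0.10 and 0.25, lost in 11).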

How the results depend on the processing

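The counts of lower members ran from 64 to 70 in BMP and from 47 to 58 in BMP/FGF against EGF/FGF over all alternatives. No scaling moved the median of all genes by 0.1 or more, but this bound is wide for BMP/FGF against BMP. There the members' median was 0.16, and 0.11 by library size only. The median of all genes in that comparison moved from -0.004 to -0.048. Members higher in BMP (3) numbered 5 without the count filter, by Cox7a1 and Cox8b, and 1 to 3 with single libraries left out (1 without the second ANS4 library of BMP). The 5 higher in BMP/FGF against EGF/FGF became 3 to 5 with single libraries left out (3 without the first ANS4 or second BL6 library of EGF/FGF or the first BL6 library of BMP/FGF). Between BMP/FGF and BMP, 27 higher members became 17 by library size only, 11 in ANS4 alone and 47 in BL6 alone, and 0 lower members became 2 by library size only, 1 by the DESeq2 Wald test, 1 with only the 8 libraries compared, 2 in ANS4 alone and 0 to 1 with single libraries left out (1 without the first ANS4 library of EGF/FGF). Medians by line were -0.63 in BL6 in BMP against EGF/FGF, and 0.038 in ANS4 and 0.25 in BL6 between BMP/FGF and BMP.

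Line differences were less stable. The 3 in BMP against EGF/FGF became 1 to 14 with single libraries left out (1 without the first BL6 library of EGF/FGF, 5 without the second ANS4 and 14 without the first BL6 library of BMP). The 1 in BMP/FGF against EGF/FGF became 0 by library size only, without the filter and with strict subunits, 5 with only the 8 libraries compared, and 0 to 3 with single libraries left out (3 without either BL6 library of BMP, 0 without any 1 of the other 10). The 12 between BMP/FGF and BMP became 6 by library size only and 6 to 22 with single libraries left out (6 without the second ANS4 or either BL6 library of BMP/FGF, 22 without the first BL6 library of BMP). Atp5h (-0.024 in ANS4 alone) and Sdha (0.19 in BL6 alone) were counted as reversed in sign between BMP/FGF and BMP. Others crossed 0 without being counted as reversed, such as Atp5g3 in the same comparison, at -0.19 in ANS4 alone and 0.31 in BL6 alone. Over single named genes and alternatives, 2887 values kept their side of the threshold, 62 gained a call, 181 lost one and 2 were counted as reversed. The cause was not tested.

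Deviations of libraries with the same replicate number correlated at -0.0711 to 0.0529 within a line, so the numbers were not taken as pairs. With a replicate block the calls were 3 higher and 66 lower in BMP, 4 and 51 in BMP/FGF, 24 and 0 between the quiescent states, and 4, 0 and 9 line differences. Levels of 3 counts or fewer could not be told from 0.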
